A study of Mus musculus with 180 samples.

Results

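The OAS family was followed here as 6 genes, Oas1a, Oas1g, Oas2, Oas3, Oasl1 and Oasl2, taken by symbol from a table of 45070 genes measured by polyA RNA-seq in 180 samples of mouse bone marrow-derived macrophages (BMDMs). The cells came from the marrow of male wild-type C57/BL6 mice aged 6 to 8 weeks, and every sample, controls included, received 10 ng/ml LPS for 2 h after 1 h with a clinical kinase inhibitor (CKI) or with the vehicle DMSO. There were 58 CKIs with 3 samples each and 2 DMSO sets of 3, so that each CKI was set against 6 DMSO samples. No unstimulated sample belongs to these comparisons, and values therefore describe how each CKI changed the level reached after LPS, not the induction itself. The concentration of each CKI was set by the study from its affinity for an intended target and differs among CKIs, so CKIs are given side by side and compared only with DMSO. All 6 members passed the filter for testing, a mean normalized exonic read count of at least 10, which left 12714 genes.

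OAS proteins are interferon-induced sensors of double-stranded RNA, a sign of viral infection. When bound to it, the active members join ATP into chains linked 2′ to 5′ (2-5A), a second messenger of the antiviral response. Macrophages exposed to LPS signal through TLR4 and TRIF to make interferon beta, and that interferon acts back on the cells through JAK kinases and STAT proteins to raise OAS transcripts, while part of the family can also be switched on more directly by IRF factors. Oas1a and Oas1g are short synthetases of the OAS1 type, Oas2 and Oas3 are longer forms with repeated OAS units, Oasl2 is an OAS-like protein that keeps synthetase activity, and mouse Oasl1 is an OAS-like protein without it, known for holding back the translation of Irf7.

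All 6 genes lie on mouse chromosome 5 (mm10). Oas2 (chr5:120730333-120749848), Oas3 (chr5:120753098-120777659), Oas1g (chr5:120876142-120887613) and Oas1a (chr5:120896256-120907525) follow one another on the minus strand, whereas Oasl2 (chr5:114896934-114912245) and Oasl1 (chr5:114923240-114937911) sit side by side on the plus strand. RefSeq start regions (build GRCm38.p6) were matched for 5 of the 6 members, and 100 bases before to 50 bases from the start are printed because they show which members share a sequence to which interferon-activated factors can bind. Capitals mark the core of the interferon-stimulated response element (ISRE), GAAANNGAA, searched on both strands.
Oas1a, chr5:120907476-120907625, minus strand: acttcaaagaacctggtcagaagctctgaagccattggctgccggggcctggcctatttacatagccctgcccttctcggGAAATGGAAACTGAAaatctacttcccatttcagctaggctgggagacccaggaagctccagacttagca
Oas1g, chr5:120887564-120887713, minus strand: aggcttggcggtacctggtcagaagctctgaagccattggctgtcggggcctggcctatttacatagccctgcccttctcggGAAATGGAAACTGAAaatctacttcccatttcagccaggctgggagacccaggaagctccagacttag
Oas3, chr5:120777610-120777759, minus strand: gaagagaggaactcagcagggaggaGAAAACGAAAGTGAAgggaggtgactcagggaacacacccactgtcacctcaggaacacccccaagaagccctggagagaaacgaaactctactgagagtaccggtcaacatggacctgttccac
Oasl1, chr5:114923140-114923289, plus strand: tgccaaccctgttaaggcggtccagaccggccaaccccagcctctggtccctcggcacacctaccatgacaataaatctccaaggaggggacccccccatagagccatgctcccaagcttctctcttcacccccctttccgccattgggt
Oasl2, chr5:114896834-114896983, plus strand: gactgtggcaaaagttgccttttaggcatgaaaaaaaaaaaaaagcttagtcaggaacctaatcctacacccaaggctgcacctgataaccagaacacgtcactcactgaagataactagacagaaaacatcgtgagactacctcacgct

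Oas1a, Oas1g and Oas3 each held a pair of overlapping ISRE cores whose starts lay 6 bases apart, beginning 20, 18 and 75 bases before the start. At least 1 such core was found in 8.56% of the 32851 RefSeq promoter windows (250 bases before to 50 from the start), and a pair with this spacing in 0.21%. The windows of Oasl1 and Oasl2 held no match, which says only that these letters were not within this distance of the annotated start. The core of the gamma-activated site (GAS), TTCNNNGAA, present in 8.3% of windows, matched once among the members, in Oas1a, 98 bases before the start and without overlap with the ISRE cores. The Oas1a and Oas1g stretches were alike at 140 of 148 aligned bases, 94.6%. Their transcripts are also close: of the 51-base words in the GENCODE vM21 coding transcript of Oas1a, 56.3% were found in that of Oas1g too, against 0 shared words for Oas2, Oas3, Oasl1 and Oasl2. A read from a shared stretch cannot be assigned to Oas1a or Oas1g, so their separate levels are uncertain, and the part of this in their parallel values was not tested. An exon of an antisense gene (Gm13822) overlaps Oasl1 and one of Gm43068 lies opposite to Oas2, and no strand setting is given for the counting, so reads of these partners cannot be told apart.

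After LPS alone the family was well expressed. Per kilobase of transcript, the mean level in the 6 DMSO samples was 2838 ± 640 (SD) for Oasl1, 1177 ± 335 for Oas1a, 682 ± 196 for Oas1g, 568 ± 123 for Oas3, 556 ± 199 for Oasl2 and 148 ± 54.5 for Oas2. Oasl1 was thus the most abundant member and Oas2 the least, while Oas1g, Oas3 and Oasl2 lay within 1 SD of one another. Of the other mouse OAS genes, Oas1b (23 to 86 normalized counts in DMSO) and Oas1c (15 to 40) passed the filter, and Oas1d, Oas1e, Oas1f and Oas1h stayed at 7 or fewer in every sample. Sample totals ran from 9477340 to 12273349 normalized counts. The macrophage marker list (8 genes) summed to 82188 to 185832 in DMSO and 71477 to 211774 with CKIs, and the neutrophil list (8 genes) to 298 to 1008 and 244 to 2277, with Ly6g under 10 in every sample. A list for plasmacytoid dendritic cells (3 genes) summed to 1608 to 3416 in DMSO and 1238 to 5152 with CKIs, nearly all of it Bst2, which interferon also induces in macrophages, while Siglech reached 11 and Ccr9 21 at most. In the list for T and NK cells (6 genes), Cd3e, Cd3d, Cd8a, Ncr1 and Klrb1c stayed under 10 in every sample. Cd4, from the same list, reached 19 in DMSO and 27 with CKIs. In bulk samples, fewer cells expressing a gene and less RNA per cell cannot be told apart.

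With most CKIs no member of the family passed the test against DMSO. Of 348 combinations of a member and a CKI, 3 passed an adjusted p of 0.05 as lower (limma, Benjamini-Hochberg over all genes tested) and 7 as higher, that is 0.862% and 2.01%, against 1.65% and 2.52% of all combinations of a gene and a CKI. The members were therefore called no more often than genes at large. The SE of a log2 difference ran from 0.14 for Oas3 to 0.37 for Oasl2. A combination without a call is thus not shown to be unchanged. At an unadjusted p under 0.05 there were 32 combinations, 7 lower and 25 higher, or 9.2%, while the share over all genes was 15.7%. The 3 lower calls were Oasl1 with Midostaurin and Oas2 and Oas3 with Filgotinib. The 7 higher calls were Oas1a, Oas1g and Oasl2 with Lapatinib, Oasl1 and Oasl2 with Omipalisib, Oas2 with BGT226 and Oasl2 with Pimasertib. Scaling each sample further by the median of ratios shifted the fold changes of these combinations by -0.19 to 0.04 on the log2 scale and kept 9 of the 10 calls, and it moved the share of higher calls among all genes from 60.4% to 41.2%.

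**Figure D1:**
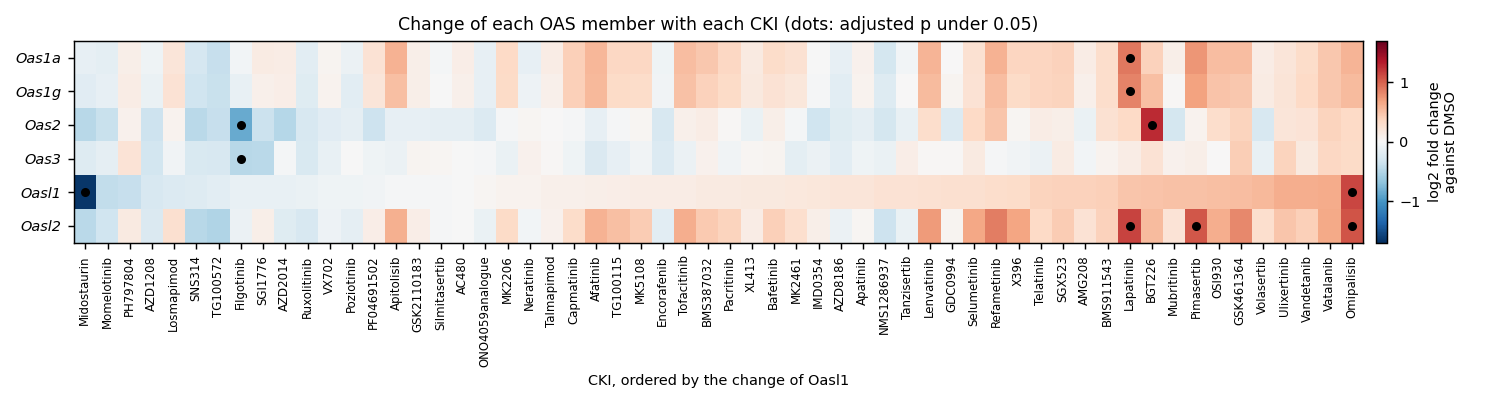
Colour shows the log2 fold change against DMSO of each OAS member (vertical axis) with each of the 58 CKIs (horizontal axis, ordered by the change of Oasl1), and dots mark an adjusted p under 0.05. Midostaurin, at the left end, has the deepest fall (Oasl1, -1.65), and BGT226 has the highest rise (Oas2, 1.27).

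The members differed in the span of their condition means, which holds replicate spread as well as any effect of the CKIs. Condition means of Oasl1 spanned 6.7-fold from the lowest to the highest, those of Oas2 4.34-fold, Oasl2 3.08-fold, Oas1a 2.42-fold, Oas1g 2.32-fold and Oas3 1.85-fold. A limma F test over the 59 conditions called 4 of the 6 members, where 48.6% of all genes were called. These were Oasl1 (adjusted p = 8.8e-12), Oas2 (4.0e-05), Oas3 (0.00012) and Oasl2 (0.021), but not Oas1a (0.18) or Oas1g (0.14). In an alternative fit with the replicate number as a further term, Oas1a and Oas1g also passed this F test (adjusted p = 0.011 and 0.0081). There 78.7% of all genes were called. When conditions were put in order of their mean, the replicate values of every pair of neighbours overlapped for Oas1a, Oas1g, Oas3 and Oasl2. Gaps appeared in the order of Oas2, between Refametinib and BGT226, and of Oasl1, between Midostaurin and Momelotinib and between Vatalanib and Omipalisib. The spread between replicates was also uneven: the residual SD on the log2 scale was 0.2 for Oas3, 0.3 for Oasl1, 0.35 for Oas2, 0.41 for Oas1g, 0.43 for Oas1a and 0.54 for Oasl2, where the median gene had 0.31. The same shift was thus harder to detect in Oasl2 and Oas1a than in Oas3.

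**Figure D2:**
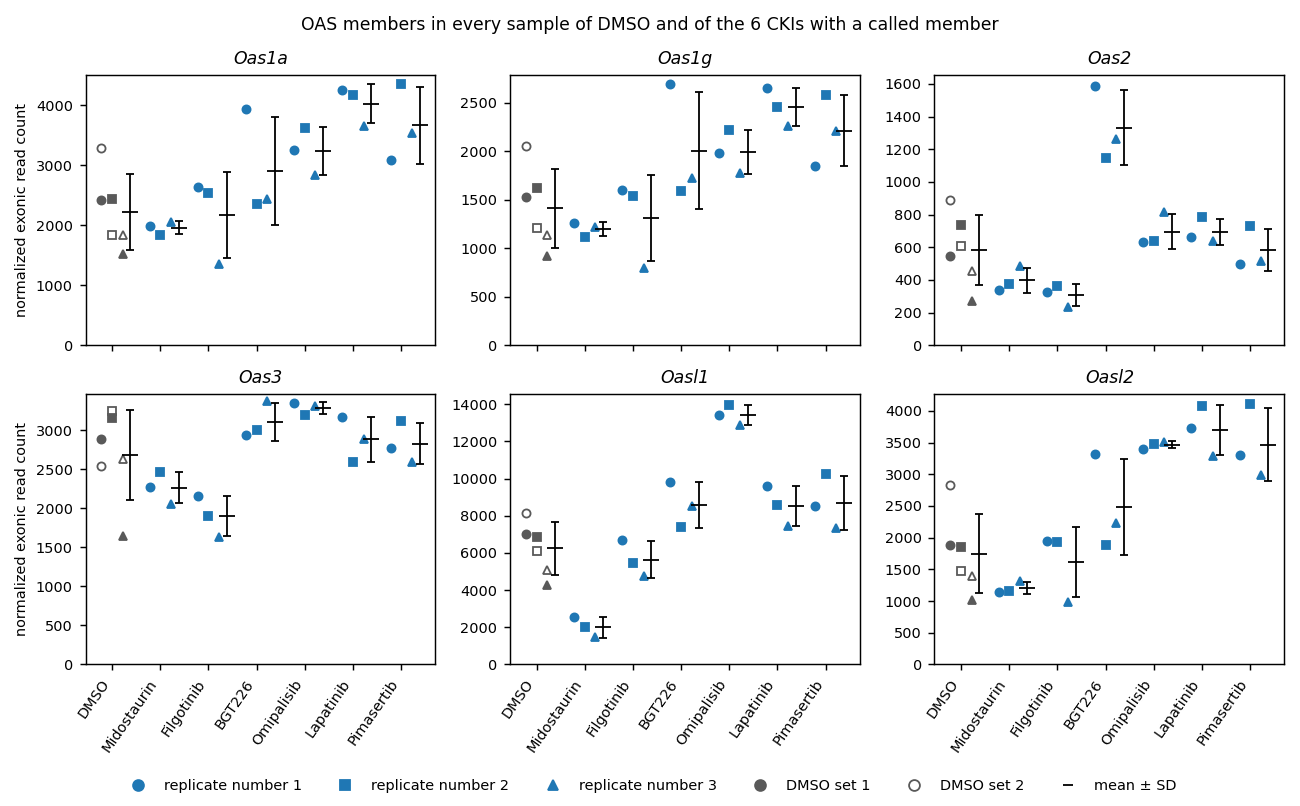
Each panel plots the normalized exonic read count of a member (vertical axis, from 0) in every sample of DMSO (grey, filled for set 1 and open for set 2) and of the 6 CKIs with a called member, with marker shape giving the replicate number and the bar the mean ± SD. Midostaurin samples of Oasl1 (1452 to 2565) lie under all DMSO samples, Omipalisib samples of Oasl1 (12879 to 13941) and BGT226 samples of Oas2 (1144 to 1590) above them.

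Among the short synthetases, Oas1a was called with Lapatinib only, an inhibitor of the EGFR and HER2 receptor kinases. In DMSO, Oas1a ran from 1513 to 3281 normalized counts with a median of 2135. With Lapatinib it read 3651, 4163 and 4261, so that all 3 samples lay above the 6 DMSO samples. The difference was 0.90 ± 0.30 (SE) on the log2 scale, 1.87-fold (adjusted p = 0.023). Oas1g went with it, at 2260, 2454 and 2650 against 925 to 2054 in DMSO (median 1366), a log2 difference of 0.84 ± 0.28 (adjusted p = 0.024), and how far this is separate from Oas1a, given the shared sequence, was not tested. Both genes stood next highest with Pimasertib, an inhibitor of the MEK kinases, with log2 differences of 0.75 for Oas1a and 0.68 for Oas1g that did not pass (adjusted p = 0.057 and 0.069). In the alternative limma fit with the replicate number as a further term, these 2 differences passed (adjusted p = 0.019 and 0.026). The lowest means of Oas1a were those of TG100572, NMS1286937 and SNS314, at 1405 to 2033, 1256 to 2114 and 1350 to 2036, and all overlapped DMSO.

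Oasl2, the OAS-like synthetase, had 3 of the 7 higher calls, the largest number of any member. Its DMSO values ran from 1018 to 2833 (median 1663.5). With Lapatinib Oasl2 was measured at 3290, 3732 and 4070, with Omipalisib, an inhibitor of PI3K and mTOR, at 3401, 3480 and 3509, and with Pimasertib at 2989, 3303 and 4114. All 9 of these samples exceeded the highest DMSO sample. The differences were 1.15 ± 0.37 (2.22-fold, adjusted p = 0.02), 1.06 (2.09-fold, 0.025) and 1.05 (2.07-fold, 0.033) on the log2 scale. Of all genes tested, 18.1% were called higher with Lapatinib, 17.5% with Omipalisib and 16% with Pimasertib, beside which stand 3, 2 and 1 of the 6 members. In the other direction 5.26%, 8.16% and 5.68% of genes were called and no member was. Refametinib and GSK461364 followed, at 2806 to 3136 and 1945 to 4211.

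The Lapatinib and Pimasertib calls lay near the threshold and were lost when single samples were left out. Their log2 differences stayed near those of the full fit. Each of the Lapatinib calls of Oas1a, Oas1g and Oasl2 was lost when any of the 3 Lapatinib samples was left out, when replicate 3 of DMSO set 1 or replicate 2 of set 2 was left out, and without replicate number 2 or 3, with log2 differences of 0.79 to 0.97, 0.70 to 0.90 and 1.00 to 1.23 and adjusted p-values of 0.051 to 0.212. Oasl2 with Pimasertib was lost in the same ways and without replicate 3 of DMSO set 2 (0.91 to 1.15, adjusted p = 0.055 to 0.296). Oasl2 with Omipalisib was lost without any of its own samples, replicate 3 of DMSO set 1 or replicate number 2 or 3 (0.82 to 1.08, adjusted p = 0.067 to 0.187). The direction was kept in each of these cases.

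Mitochondrial transcripts moved with the Lapatinib and Pimasertib samples. They made up 1.92 to 3.71% of the total with Lapatinib, against 0.76 to 1.95% in DMSO. With Pimasertib they made up 3.24 to 4.29%, the highest mean of the 59 conditions. With the log2 of that share as a term in the fit, chosen after seeing the data, the log2 differences with Lapatinib became 0.26 for Oas1a, 0.27 for Oas1g and 0.33 for Oasl2, and that of Oasl2 with Pimasertib became -0.06, with adjusted p-values of 0.52 to 0.94. Oasl2 with Omipalisib became 0.62 (adjusted p = 0.042), and the 5 other calls kept an adjusted p under 0.05 in that fit. The share was measured after treatment. With Pimasertib it did not overlap DMSO, and with Lapatinib it did so only at its lower end. That fit therefore cannot separate these 2 CKIs from the share. Over the 59 conditions the mean of Oas1a had a Pearson r of 0.74 with this share, Oasl2 0.70 and Oas1g 0.69, against 0.28 for Oas2, 0.19 for Oasl1 and 0.05 for Oas3. The macrophage list summed to 167348 to 205237 with Lapatinib and 162016 to 195641 with Pimasertib. Most of this was Lyz2 (110764 to 143185 and 105390 to 131909, against 44126 to 131174 in DMSO). Csf1r read 23330 to 26294 and 23554 to 28336 against 24416 to 25418 in DMSO, and Mertk 134 to 144 and 156 to 205 against 148 to 203. The neutrophil list (8 genes, with Ly6g under 10 throughout) summed to 1336 to 1540 and 1361 to 1560 against 298 to 1008 in DMSO. Elane, from that list, read 12 to 15 and 13 to 33 against 9 to 32, so the sums do not stand for every gene of a list. The plasmacytoid dendritic cell list summed to 4180 to 4519 with Lapatinib, above all DMSO samples, to 3315 to 4517 with Pimasertib and to 3277 to 5152 with Omipalisib, of which Siglech made up 9 or less and Ccr9 15 or less. The part of these shifts in the OAS values was not tested beyond that fit.

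Oas2, a long synthetase and the least abundant member, was raised by BGT226, another inhibitor of PI3K and mTOR, and lowered by Filgotinib, an inhibitor of JAK1. Oas2 in DMSO ranged from 273 to 890 normalized counts (median 577). With BGT226 it read 1144, 1262 and 1590, all above DMSO, a log2 difference of 1.27 ± 0.24 (2.4-fold, adjusted p = 8.9e-06). It was the only member called of the 6, where 24.1% of all genes were called higher and 6.32% lower. This rise kept an adjusted p of at most 0.014 in all 25 alternatives tried, 12 of which left out a sample or a replicate number. BGT226 placed Oasl1 at 7376 to 9842, Oas1g at 1594 to 2697, Oas1a at 2347 to 3938, Oasl2 at 1880 to 3327 and Oas3 at 2932 to 3378, with log2 differences of 0.24 to 0.54 that did not pass. Oas1b, whose product is truncated in C57BL/6 mice, rose along with Oas2, from a DMSO range of 23 to 86 to 115, 190 and 234 (log2 difference 1.88 ± 0.35, adjusted p = 4.5e-06).

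With Filgotinib Oas2 fell to 233, 328 and 360, a log2 difference of -0.86 ± 0.24 (adjusted p = 0.0055). These values overlapped DMSO through its lowest sample, replicate 3 of set 1, at 273. Oas3, the largest synthetase, fell with it, to 1635, 1904 and 2154 from a DMSO range of 1646 to 3240 (median 2756.5), a log2 difference of -0.47 ± 0.14 (adjusted p = 0.01). Here too only the lowest DMSO sample reached into the Filgotinib range. The other members stayed near DMSO, with log2 differences of -0.05 for Oas1a, -0.12 for Oas1g, -0.10 for Oasl2 and -0.13 for Oasl1. So 2 of 6 members were called lower where 14.6% of all genes were, and none higher where 6.1% were. Without replicate 3 of Filgotinib the differences were -0.67 for Oas2 (adjusted p = 0.08) and -0.37 for Oas3 (0.104), without replicate number 2 they were -0.84 (0.084) and -0.34 (0.251), and without replicate number 1 Oas2 had -0.74 (0.08). Against DMSO set 1 alone they were -0.67 (0.099) and -0.39 (0.11).

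Oas3 had the narrowest span of condition means in the family, 1.85-fold, and also the smallest replicate spread, a residual SD of 0.2. Since replicate spread widens such a span, the span does not rank the response of Oas3 to the CKIs. Its highest mean was that of GSK461364, an inhibitor of PLK1, at 3305, 3611 and 3635, the only CKI with all samples above DMSO, yet the log2 difference of 0.42 ± 0.14 did not pass (adjusted p = 0.18). Ulixertinib (3093 to 3667) and Vatalanib (3052 to 3811) came next. SGI1776, with the second lowest mean, spread from 1466 to 2458 and AZD1208 from 1750 to 2709; neither passed.

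Oasl1, the member without synthetase activity, had both the deepest fall and a rise that kept its call throughout. In DMSO it ran from 4255 to 8130 normalized counts (median 6498). Midostaurin, an inhibitor of FLT3, protein kinase C and other kinases, brought it to 1452, 1987 and 2565, so that every sample lay below every DMSO sample. This was a log2 difference of -1.65 ± 0.21, a 3.13-fold fall (adjusted p = 1.5e-09), and the value stayed between -1.85 and -1.44 in all 25 alternatives, with an adjusted p of at most 0.0032. It was the only one of the 348 combinations in which all CKI samples lay below all DMSO samples, where 2.02% of all combinations did.

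The other members were also below DMSO on average with Midostaurin, by less, and none passed. Oas1a read 1833, 1995 and 2049, Oas1g 1115 to 1263, Oas2 338 to 484, Oas3 2058 to 2459 and Oasl2 1149 to 1314. All of these values lay within the DMSO ranges, with log2 differences of -0.14, -0.19, -0.47, -0.22 and -0.46 (adjusted p = 0.31 to 0.87). Midostaurin changed few genes at large, 1.93% lower and 2.63% higher. Ifnb1, the gene of interferon beta, fell with it from 75 to 262 (median 92.5) in DMSO to 7, 11 and 12, a log2 difference of -3.36 ± 0.40 (adjusted p = 1.1e-10).

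Omipalisib raised Oasl1 to 12879, 13397 and 13941, far above DMSO and with little spread, a log2 difference of 1.13 ± 0.21 (2.19-fold, adjusted p = 8.1e-06). It passed in all 25 alternatives (0.96 to 1.29, adjusted p of at most 0.0062). Ifnb1 with Omipalisib read 726, 1727 and 2207, a log2 difference of 3.67 ± 0.40 (adjusted p = 1.4e-13) and the highest mean of the 59 conditions. Vatalanib (8439 to 11809), Ulixertinib (8702 to 9704) and GSK461364 (8222 to 9712) also had every Oasl1 sample above DMSO, with log2 differences of 0.63, 0.62 and 0.53 that did not pass. In all, combinations with every CKI sample above DMSO numbered 11, namely 4 of Oasl1, 3 of Oasl2 and 1 of each other member, or 3.16%, where the share over all genes was 4.52%. At the lower end, Momelotinib spread from 3390 to 6230 and PH797804, an inhibitor of p38, from 3817 to 5508.

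Since the JAK kinases carry the interferon signal, the 6 CKIs designated as JAK inhibitors were looked at together. Apart from Filgotinib none had a called member. Oas3 was below DMSO on average with 5 of the 6, with log2 differences of -0.47 to 0.06, and each other member with 3 of the 6. Oas2 ranged from -0.86 with Filgotinib through -0.37 with Momelotinib, -0.27 with Ruxolitinib, 0.03 with Pacritinib and 0.09 with Tofacitinib to 0.26 with BMS911543. With Tofacitinib Oasl2 was at 2122, 2680 and 2858, a difference of 0.61 (adjusted p = 0.25), and with Ruxolitinib at 1147, 1446 and 1542 (-0.28, adjusted p = 1). Oasl1 was at 4944 to 6310 with Ruxolitinib and at 7512 to 8738 with BMS911543. Ifnb1 was higher with Tofacitinib (230, 339 and 349, log2 difference 1.45 ± 0.40, adjusted p = 0.02). It did not pass with the other 5, from -0.87 with Momelotinib to 0.98 with Pacritinib. With Momelotinib Ifnb1 nevertheless read 55, 58 and 65, below every DMSO sample (75 to 262). The paper reports Momelotinib as the sole JAK inhibitor of its set that lowered Ifnb1 expression. The doses differ among these CKIs, and no comparison between them was made.

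Across the 59 condition means the members of the family did not all vary together. Oas1a had a Pearson r of 0.99 with Oas1g and of 0.95 with Oasl2, which is encoded several megabases away. It had 0.64 with Oas2, 0.51 with Oasl1 and 0.44 with Oas3. Oas2 and Oas3 had 0.71 with each other, and Oasl1 had 0.65 with its neighbour Oasl2. The points are means over samples with the same replicate numbers, and they differ in the mitochondrial share described above. Deviations of single samples from the mean of their CKI or DMSO set were correlated too. Among these, Oas1a had r of 0.99 with Oas1g, 0.95 with Oasl2, 0.74 with Oas2, 0.72 with Oasl1 and 0.30 with Oas3. The part of this sample variation in the condition means was not tested. The correlations are given as a description.

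The genes other than the 6 members with the most similar condition means differed by member as well. For Oas1a they were Lgals3bp (r = 0.94), Tapbpl (0.94) and Lgals9 (0.93), for Oas1g Tapbpl, H2-T24 and Dhx58 (0.92 each) and for Oasl2 Trim30a (0.94), Phf11a and Phf11b (0.92 each). For Oas2 they were Oas1b (0.89), itself an OAS gene, Nlrc5 (0.86), a regulator of MHC class I genes, and Rnf213 (0.85). Oas3 was most like the guanylate-binding proteins Gbp9 (0.84), Gbp10 (0.82) and Gbp6 (0.81), and Oasl1 most like Rsad2 (0.91), which encodes the antiviral enzyme viperin, Ifit2 (0.87) and Ifit3 (0.84). Ifnb1 itself had r of 0.63 with Oasl1, 0.48 with Oasl2, 0.43 with Oas1a, 0.41 with Oas1g, 0.31 with Oas2 and 0.28 with Oas3. Stat2 had 0.65 with Oas2 and 0.64 with Oas3 but 0.16 with Oas1a, whereas Irf9 had 0.83 with Oas1a and 0.33 with Oas3. Over the deviations of single samples from the mean of their CKI or DMSO set, the order for Ifnb1 differed. There Ifnb1 had r of 0.79 with Oas1a, 0.76 with Oas1g, 0.71 with Oasl2, 0.43 with Oasl1, 0.42 with Oas2 and 0.03 with Oas3.

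**Figure D3:**
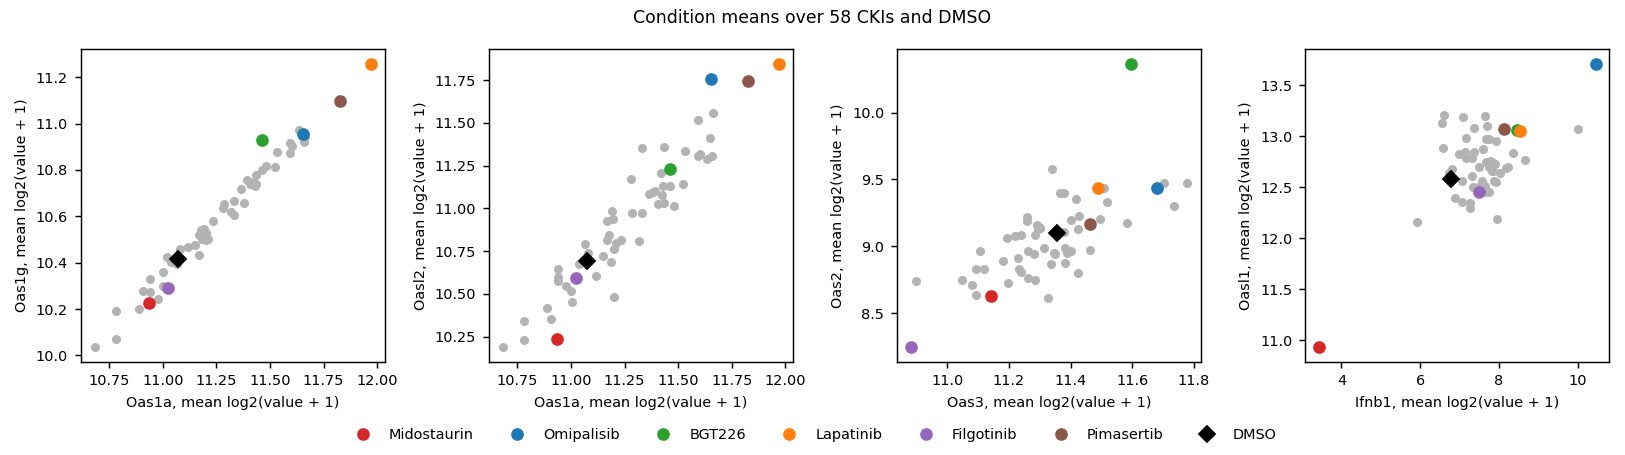
Each point is the mean log2(normalized count + 1) of a condition, for Oas1g against Oas1a, Oasl2 against Oas1a, Oas2 against Oas3 and Oasl1 against Ifnb1, with DMSO as a diamond and the CKIs with a called member in colour. The first and second panels form narrow bands (r = 0.99 and 0.95), BGT226 stands above the rest in the third, and Midostaurin and Omipalisib form the ends of the fourth.

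Ratios of members within a sample do not depend on the scaling of the sample beyond the pseudocount, and 3 were tested over the 59 conditions by permuting samples within replicate numbers (100000 permutations, adjusted over the 3). All differed between conditions: Oas1a to Oas1g (F = 1.68, adjusted p = 0.0023), Oas2 to Oas3 (F = 1.92, 0.001) and Oasl1 to Oasl2 (F = 2.19, 3.0e-04). Oasl1 exceeded Oasl2 by 1.52 to 2.06 (median 1.89) on the log2 scale in DMSO. With Midostaurin the margin was 0.14 to 1.16, with Lapatinib 1.07 to 1.36 and with Pimasertib 1.30 to 1.36, below all DMSO samples, whereas with NMS1286937 it was 2.40 to 2.53, above them. In single CKIs an exact two-sided permutation test over 84 splits has a smallest p of 0.012, which was reached in 7 CKIs for this ratio. After adjustment over the 58 CKIs the lowest value was 0.099, and none passed. A CKI that reaches the smallest p alone cannot pass this adjustment. The adjusted values for single CKIs therefore do not show that a ratio was unchanged. The Oas2 to Oas3 ratio reached that p only with BGT226, where Oas2 minus Oas3 on the log2 scale was -1.42 to -0.88 against -2.59 to -1.51 in DMSO (adjusted p = 0.69). The Oas1a to Oas1g margin moved little in size. It was 0.59 to 0.71 in DMSO and lowest with BGT226, at 0.50 to 0.56.

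A contrast chosen after the values were seen, and given without a test, set the mean of Oas2 and Oas3 against that of Oas1a, Oas1g and Oasl2 on the log2 scale. It ran from -0.83 to -0.08 in DMSO. With Pimasertib it was -1.31 to -1.18, with Lapatinib -1.28 to -1.15 and with Apitolisib -1.34 to -0.97, below every DMSO sample. With Filgotinib it was -1.26 to -0.72 and with Tofacitinib -1.28 to -0.71, overlapping DMSO. The former CKIs had high values of the second group, and Filgotinib had low values of the first.

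Genes of the 2-5A pathway outside the OAS family moved in their own way. Of 348 combinations of a CKI with the 6 genes of this list, which holds Abce1, Pde12, Akap7, Cnp and Enpp1, 23 were called lower and 3 higher, 6.61% and 0.862%. The shares over all combinations of a gene and a CKI were 1.65% and 2.52%. Pde12, which degrades 2-5A, made up 11 of the lower calls, with AZD2014 at -1.94 ± 0.26 (adjusted p = 1.9e-09), BMS911543 at -1.17, BGT226 at -1.09, Omipalisib at -1.04, Pimasertib at -0.97 and Lapatinib at -0.92 among them. Abce1 was called lower with 4 CKIs, Omipalisib (-1.12) and BGT226 (-0.88) among them, and Cnp with 6. None of these genes was among the 10 most like any OAS member.

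The other sensors and effectors of double-stranded RNA, 15 genes in 870 combinations, gave 12 lower and 13 higher calls. These were 1.38% and 1.49%, against 1.65% and 2.52% over all genes. With Filgotinib 4 of the 15 fell, where 14.6% of all genes did, Tlr3 (-1.43), Eif2ak2 (-1.19), Ddx58 (-0.85) and Adar (-0.65). With Midostaurin, which lowered 1.93% of all genes, 3 fell, Ifih1 (-1.52), Ddx58 (-0.83) and Zc3hav1 (-0.46). Omipalisib raised 5, among them Zbp1 (0.94) and Ifih1 (0.82), and BGT226 raised 2, Dhx9 (1.01) among them, where they raised 17.5% and 24.1% of all genes. Ifih1, the sensor MDA5, fell with Midostaurin and rose with Omipalisib, as Oasl1 did, at adjusted p = 2.1e-06 and 0.0076. It also fell with Pimasertib (-0.87, adjusted p = 0.0098) and Apitolisib (-0.82, adjusted p = 0.022), where Oasl1 did not pass (0.50, adjusted p = 0.072, and -0.02, adjusted p = 0.95).

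Of the genes of interferon production and signalling, 22 of 23 were tested, with 38 lower and 41 higher calls in 1276 combinations. These were 2.98% and 3.21%, against 1.65% and 2.52% over all genes. Ifnb1 was called higher with 9 CKIs and lower with Midostaurin. Irf7, whose translation Oasl1 is known to hold back, was called with no CKI (log2 differences of -0.53 to 0.59 over the 58). Filgotinib lowered 8 and raised 1 of the 22 (14.6% and 6.1% of all genes), the lower ones led by Socs1 (-3.05), Stat2 (-1.39), Usp18 (-1.38) and Ikbke (-1.16), while Midostaurin lowered 2 (1.93% of all genes), Ifnb1 among them. Lapatinib raised 6, Isg15 (1.90) and Ifnb1 (1.75) at the head, and lowered 4, where it raised 18.1% and lowered 5.26% of all genes. Pimasertib raised 5, led by Isg15 (1.64) and Ifnb1 (1.35), and lowered 4, led by Ticam2 (-1.33), where it raised 16% and lowered 5.68% of all genes. LPS response genes outside the interferon system, 12 genes in 696 combinations, gave 24 lower and 36 higher calls. These were 3.45% and 5.17%, against the same 1.65% and 2.52% over all genes. With Omipalisib 8 of them rose, where 17.5% of all genes did, led by Cxcl2 (1.62) and Cxcl1 (1.6), and with Midostaurin 4 fell (1.93% of all genes), Il6 (-1.36) the most, while Cxcl1 rose (1.01).

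**Figure D4:**
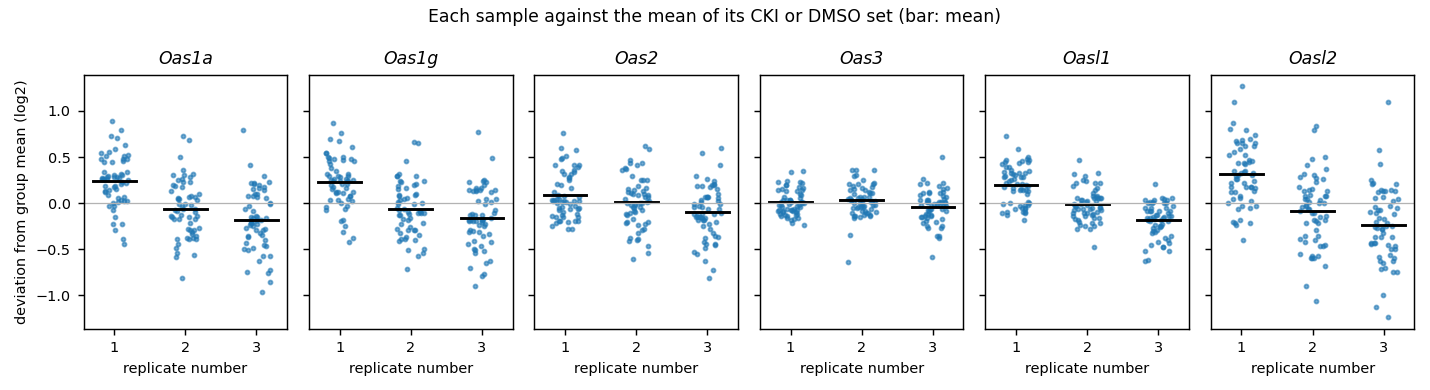
The vertical axis gives the deviation of each sample from the mean of its CKI or DMSO set, in log2 units, and the horizontal axis its replicate number, with a bar at the mean of the 60 samples. Samples numbered 1 lie above the others for Oas1a, Oas1g, Oasl1 and Oasl2 (means 0.20 to 0.32), and Oas3 shows means of -0.04 to 0.03.

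OAS levels also differed with the replicate number of a sample. In a fit with group and replicate number, 5 of the 6 members differed by number, as did 82.9% of all genes. The log2 difference between samples numbered 3 and those numbered 1 was -0.55 for Oasl2 (adjusted p = 3.3e-09), -0.42 for Oas1a (4.0e-08), -0.38 for Oas1g (1.2e-07) and -0.38 for Oasl1 (6.8e-14). Oas2 differed less (-0.19, adjusted p = 0.011) and Oas3 did not pass (-0.05, adjusted p = 0.18). Sample 3 lay below sample 1 in 49 of 60 groups for Oasl1 and in 31 of 60 for Oas3. In DMSO the lowest sample of each member was replicate 3 of set 1, and the highest was replicate 1 of set 2 except for Oas3, where it was replicate 2 of set 2. The DMSO sets themselves differed by 0.10 to 0.38 on the log2 scale, and 0 of the 6 members and 0% of all genes passed (310 genes at an unadjusted p under 0.05, none of them a member).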

How the data were processed

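PolyA RNA was turned into SMART-seq2 libraries. The authors mapped reads to mm10 with TopHat2 2.1.1, keeping 1 alignment per read, removed blacklisted regions with bedtools 2.29.2, counted reads on exons of RefSeq genes and scaled samples on invariant genes. The deposited values are normalized exonic read counts rounded to whole numbers, treated as a score and not as raw counts, so depth is known only as normalized totals, and tests were run with limma 3.58.1 (R 4.3.3) on log2(value + 1). No comparison columns were used, and 0 value columns lacked a sample. A fold change on the log2(value + 1) scale understates that of low genes. Groups came from the labels. Genes with a mean of at least 10 were tested, all 59 groups in 1 fit with a variance trend, and p-values adjusted by Benjamini-Hochberg over genes for each CKI. P-values measure the spread between samples, stated to be independent biological replicates. Named were the 6 members in every CKI, CKIs with a call, the JAK inhibitors, Midostaurin, the 3 highest and 3 lowest conditions of a member, up to 4 called genes a list, Ifnb1, and 3 genes most like each member. Members and lists were chosen with earlier results of these data known. The fit was tested on simulated data. Sequences and starts are from RefSeq (GRCm38.p6). Some genes of the lists are counted in the totals but not reported here by name.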

Additional observations from a re-analysis of the deposited data

Results flagged for a closer look

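The 6 members and their 3 ratios were screened in the DMSO group for a sample far from the other 5, by the gap to the nearest sample over the whole range against Dixon's critical value at 95%, which chance passes in about 1 group in 20. Of these 9 screens, 1 passed, and only at the margin: the log2 margin of Oasl1 over Oasl2 was 1.52 in replicate 1 of DMSO set 2 and 1.86 to 2.06 in the other 5, a gap of 0.6251 of the range. That sample also had the highest Oasl1 (8130), Oasl2 (2833) and Ifnb1 (262) of the DMSO group.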

How the results depend on the processing

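The number of lower calls among the members, 3, was kept with either other pseudocount, either other filter, median of ratios scaling, DMSO set 2 alone, no variance trend and the replicate block. It was 1 with DMSO set 1 alone, 1 with only the CKI and DMSO in each fit and 1 when a log2 fold change of 1 was also required. The number of higher calls, 7, became 4 with DMSO set 1 alone, 2 with set 2 alone and 3 with the mitochondrial share as a term, a setting chosen after seeing the data, under which Oasl2 with Pimasertib turned to -0.056. Leaving out a replicate number or a DMSO sample gave 1 to 6 lower and 2 to 13 higher calls: 6 lower and 2 higher without replicate number 3, 5 and 2 without replicate 3 of DMSO set 1, 3 and 12 without replicate 1 of set 2, and 3 and 4 without replicate 2 of set 2. Leaving out each sample of a CKI with a call, also chosen after seeing the data, gave 1 to 3 lower and 4 to 7 higher calls. The causes were not tested. Oas2 with BGT226 and Oasl1 with Midostaurin and Omipalisib kept their calls in all 25 alternatives.

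With the replicate number as a replicate block there were 3 lower and 14 higher calls, with all 10 calls kept, and the F test over conditions called 6 members in place of 4 (3 with median of ratios scaling), with Oas1a at an adjusted p of 0.011 and Oas1g at 0.0081 and 78.7% of all genes called. The calls added were Oasl1 with BGT226, Lapatinib, Pimasertib, Vatalanib and Volasertib, and Oas1a and Oas1g with Pimasertib. Same-numbered samples are not stated to share an animal or a day. Deviations from the group means correlated by 0.13 to 0.34 on average within a number and -0.11 between numbers, but not in every pair (lowest -0.73), and 155 of 180 samples correlated best with their own number, a hint from the data and not from the design. The ratio tests over conditions kept their results with a pseudocount of 10. With the block their p-values could not change. Samples were permuted within replicate numbers, and every group holds each number equally often. Raw depth is unknown, so the counting error behind low values, such as Ifnb1 with Midostaurin, could not be given.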
